A study of Mus musculus with 18 samples.

Results

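The JAK2-STAT5 pathway was followed through erythroid maturation as 10 genes, chosen by name from the 54232 gene identifiers of the deposited count table. They were the kinase gene Jak2, the transcription factor genes Stat5a and Stat5b, and 7 genes known as targets of cytokine signalling through STAT5, namely Cish, Socs1, Socs2, Socs3, Pim1, Osm and Bcl2l1. New RNA was labelled with 4-thiouridine (4sU), a uridine analogue that cells build into transcripts as they are made, and the labelled RNA was sequenced. The 18 libraries came from fetal livers of C57BL/6 mouse embryos aged e12.5 to e13.5, with 3 replicates of each of 6 sorted populations and no mutation or drug. S0-Low holds stem and progenitor cells with early erythroid progenitors (BFU-E), S0-Medium and S1 hold early and late CFU-E progenitors, and S2 and S3 hold Ter119-positive maturing erythroblasts. Lin+ cells are those that bind antibodies against non-erythroid blood lineages, although their label also calls them erythroblasts. All populations were rested for 6 h after sorting in medium with fetal calf serum, with no added erythropoietin named, and were then given 500 µM 4sU for 45 min. The study's text calls the replicates biological, and the labels number them without saying whether they came from separate embryos, litters or sorts, so p-values measure the spread between these libraries.

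Erythropoietin, the hormone that keeps red cell precursors alive, binds a receptor that has no enzyme activity of its own and works through the kinase JAK2 attached to it. JAK2 phosphorylates STAT5A and STAT5B, closely related proteins that then enter the nucleus and bind DNA at a short palindromic element. Among the genes they switch on are those for CISH and the SOCS proteins, which damp the receptor and kinase in a feedback loop. Others encode PIM1, a survival kinase, oncostatin M, a secreted cytokine (Osm), and BCL-XL, which protects late erythroblasts from cell death (Bcl2l1). Changes in amounts of new RNA do not by themselves measure the activity of JAK2 or of the STAT proteins.

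The RefSeq start regions of Cish and Socs3 are shown because these feedback genes rose from S0-Low to S3 and because, among the members, theirs were the windows that held the STAT element TTCNNNGAA. The element reads the same on both strands, and its matches are in capitals below. Windows ran from 250 bases before to 50 bases after each annotated start (GRCm38.p6), and 8 of the 10 members had at least 1, with 13 windows in all. The element was in 2 of these 13 windows, and in 2726 of all 32851 windows (8.3%). The Cish sequence lies at chr9:107296409-107296678 on the plus strand, with matches that begin at bases 1 and 12 counted from the start of the transcript as base 1. The Socs3 sequence lies at chr11:117969367-117969616 on the minus strand, with a match that begins at base -154. It lies inside the Socs3 locus given below, which ends at chr11:117970336, so its start is not the outermost of the locus.
Cish: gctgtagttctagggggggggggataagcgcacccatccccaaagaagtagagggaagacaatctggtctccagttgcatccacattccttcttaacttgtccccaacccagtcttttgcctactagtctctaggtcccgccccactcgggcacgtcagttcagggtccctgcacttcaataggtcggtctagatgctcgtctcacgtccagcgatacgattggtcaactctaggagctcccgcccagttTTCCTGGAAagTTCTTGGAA
Socs3: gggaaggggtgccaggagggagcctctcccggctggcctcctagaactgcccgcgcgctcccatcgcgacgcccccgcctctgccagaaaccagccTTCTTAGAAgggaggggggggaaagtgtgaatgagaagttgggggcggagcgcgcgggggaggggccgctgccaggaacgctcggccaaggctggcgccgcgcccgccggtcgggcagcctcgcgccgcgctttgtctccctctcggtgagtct
A match is a run of letters and not a measured binding site. The windows of Jak2, Stat5a, Stat5b, Socs1, Pim1 and Bcl2l1 held no match in these bases.

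The libraries held 9452476 to 40567976 counts, the fewest in S0-Low replicate 3, so that a floor of 3 counts corresponded to 0.317 to 0.074 CPM before scaling. Values are given as CPM, counts relative to a library total of 1000000, after TMM scaling, which sets each library's total by the genes that differ least between libraries, and intervals on counts cover counting error only. The populations matched their labels in the erythroid markers: the summed CPM of 8 erythroid genes was 480 to 1151 in S0-Low and 31466 to 52925 in S3, and 226 to 271 in Lin+. Neutrophil, macrophage and monocyte markers were highest in Lin+, with S0-Low next. The 8 neutrophil markers summed to 409 to 832 in S0-Low, 0.634 to 1.63 in S1, 0 to 1.58 in S3 and 2867 to 5570 in Lin+, and the 8 macrophage and monocyte markers to 48.9 to 110 in S0-Low, 1.70 to 3.18 in S1, 0.0575 to 4.28 in S3 and 925 to 1132 in Lin+. Fewer cells of a type and less RNA per cell cannot be told apart in such bulk samples. The median log2 fold change from S0-Low to S3 over all genes tested came to -0.54 after TMM scaling and to -1.36 with library totals, and no member changed direction between these scalings.

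The libraries numbered 3 stood apart for several feedback genes. Within each population they were lowest for Cish and Socs2, and also for Socs1 and Socs3 except where libraries tied at 0 (Socs1 in S3) and in Lin+ for Socs3. In S1, Cish stood at 123 and 167 CPM in replicates 1 and 2 and at 4.98 CPM in replicate 3. Socs1 stood at 14.5 and 21.8 CPM in S0-Low replicates 1 and 2 and at 0 in replicate 3, and Socs2 at 16.8 and 26.4 CPM in S2 replicates 1 and 2 and at 0 in replicate 3. The mean difference of replicate 3 from replicates 1 and 2 over the 6 populations, on the log2(CPM + 0.5) scale, was -3.55 for Socs2, -3.32 for Socs1, -3.26 for Cish and -2.21 for Socs3, which ranked 7, 13, 16 and 90 from the lowest of 17755 genes. For Jak2 it was 1.14, higher than in 97.1% of genes, and Jak2 was higher in replicate 3 in all 6 populations. Thus 4 of the 10 members were among the lowest 5% of genes and 1 among the highest 5%. Bcl2l1 (0.04), Stat5a (0.01), Stat5b (0.28) and Osm (-0.12) lay near the median of all genes of -0.12, and Pim1 was at -0.84, with 12.3% of genes lower. These differences are given as a description, with no test. In the 5 erythroid populations replicate 3 also had the highest summed erythroid markers, for example 7447 CPM in S1 against 3299 and 3303. What a replicate number shares is not stated in the labels, and the part of that marker difference in the feedback genes was not tested. Results of the members that rest on these libraries are therefore given with and without them, and the fit without any library numbered 3 was added after the data were seen.

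**Figure D1:**
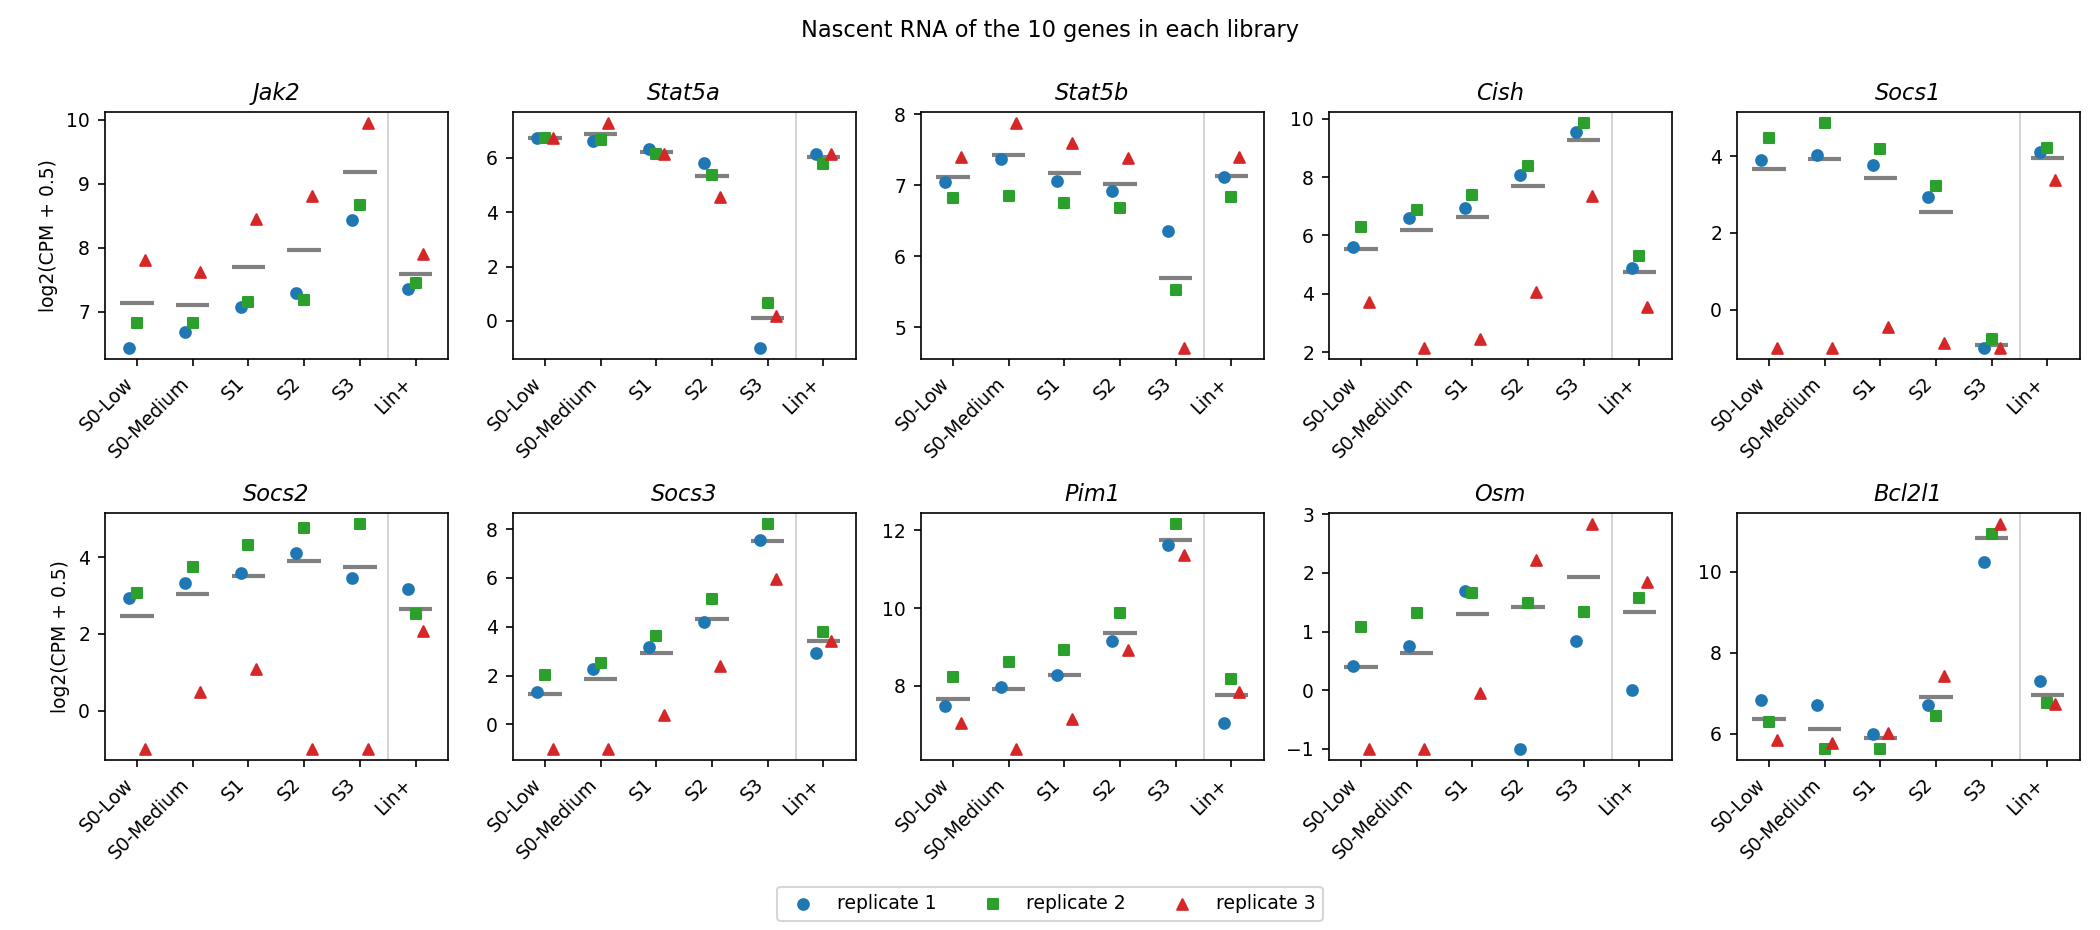
Each panel plots 1 gene, with the 5 erythroid populations and Lin+ on the horizontal axis and log2(CPM + 0.5) on the vertical axis, which differs between panels. Symbols are single libraries marked by replicate number, and grey bars are the group means of CPM put on the same scale. Cish, Socs1 and Socs2 lie lowest in the library numbered 3 in all populations except Socs1 in S3, where every library held 0 to 0.0901 CPM, and Jak2 lies highest in it.

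**Figure D2:**
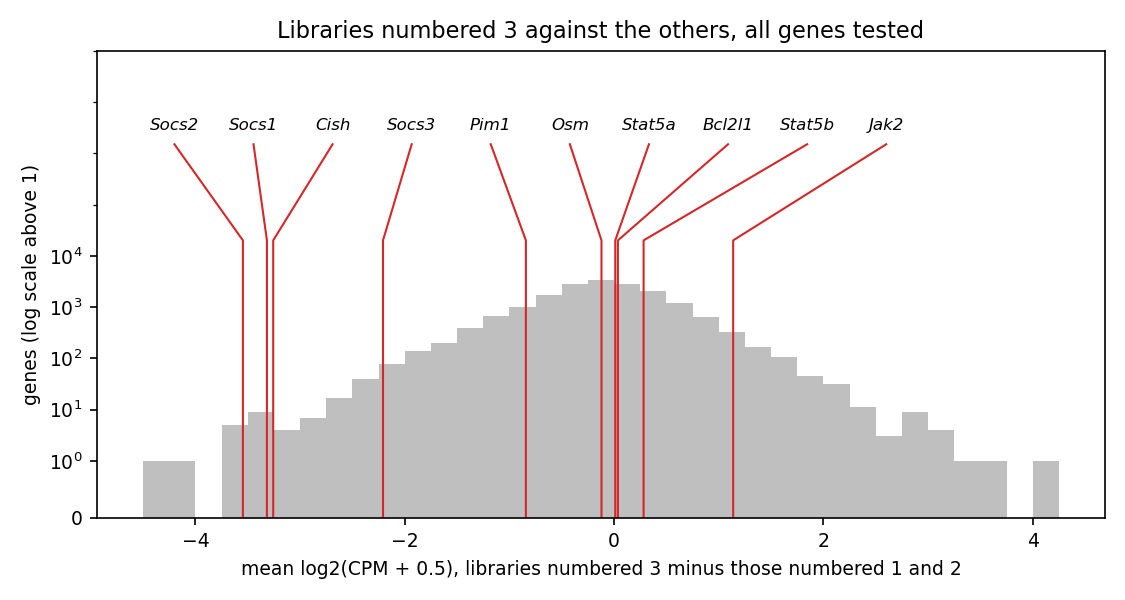
The histogram counts the 17755 genes tested over 18 libraries by the mean difference of the libraries numbered 3 from those numbered 1 and 2 over the 6 populations, in log2(CPM + 0.5). Red lines mark the 10 members. Socs2, Socs1, Cish and Socs3 lie in the left tail between -3.55 and -2.21, and Jak2 lies at 1.14.

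The first comparison asked how the pathway differed between the earliest and the most mature erythroid population. Of the 10 members, 8 differed between S3 and S0-Low: Jak2, Cish, Socs3, Pim1 and Bcl2l1 rose, and Stat5a, Stat5b and Socs1 fell. Socs2 and Osm did not pass the test. Of all 16555 genes tested 35.8% passed, 13.4% as higher and 22.4% as lower in S3. Set against these shares were 5 of the 10 members higher and 3 lower, the latter near the share of all genes. All 10 members passed the filter on low counts. The members' median log2 fold change was 2.02 against -0.54 for all genes. Without the libraries numbered 3, the same 8 members passed in the same directions, against 37.7% of all genes in that fit. Leaving out S0-Low replicate 2 or S3 replicate 3 alone left 5 members called, and a minimum of 10 counts in every library compared left 4. That minimum removed Stat5a, Socs1, Socs2, Socs3 and Osm untested, since each had 0 counts in a library compared. The share of all genes called in these fits is not given here. The shares are a description, since the members were chosen by name for being in 1 pathway.

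Jak2, which encodes the kinase itself (GRCm38 chr19:29251803-29313095), increased with maturation. In replicates 1, 2 and 3 it stood at 85.8, 113 and 223 CPM in S0-Low, at 102, 112 and 196 in S0-Medium, at 134, 142 and 347 in S1, at 157, 145 and 445 in S2 and at 344, 406 and 985 in S3. The S3 libraries all lay above those of S0-Low, while replicate 3 was the highest of each population and the range of S1 overlapped that of S3. The ratio of S3 to S0-Low among libraries of the same number was 4.01, 3.59 and 4.42, a much narrower spread than that of the levels. Jak2 rose by a log2 fold change of 2.04 ± 0.57 (SE, n = 3 against 3, edgeR adjusted p = 0.0125). Without the libraries numbered 3 the value was 1.92 ± 0.22 (adjusted p = 0.000175). The call was lost when S0-Low replicate 1 (1.72), S0-Low replicate 2 (1.84) or S3 replicate 3 (1.40) was left out, and with library totals (1.10, adjusted p = 0.109). With the replicate number as a block in the fit, Jak2 rose by 1.99 ± 0.20 (adjusted p = 4.18e-06), though pairing by number was not assumed for this comparison. In Lin+ Jak2 stood at 164, 174 and 238 CPM.

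The STAT5 genes went the other way, and by unequal amounts. They are neighbours on chromosome 11, Stat5b at chr11:100780731-100859004 and Stat5a at chr11:100859351-100885169. Stat5a stood at 107, 107 and 107 CPM in S0-Low, at 98.4, 99.9 and 155 in S0-Medium, at 79.6, 71.3 and 70.8 in S1, at 56.0, 40.5 and 23.3 in S2, and at 0, 1.08 and 0.632 in S3. From S0-Medium onward the ranges of successive populations did not overlap, and the S3 libraries were the lowest, with 0, 24 and 11 counts. The 3 S0-Low libraries held 9736 Stat5a counts and the 3 S3 libraries held 35, a pooled ratio of 162 (95% exact interval 116 to 232). The fitted log2 fold change of S3 against S0-Low was -7.47 ± 0.75 (adjusted p = 7.93e-06), and it was -7.45 ± 0.83 without the libraries numbered 3.

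Stat5b stood at 132, 113 and 169 CPM in S0-Low, at 165, 115 and 234 in S0-Medium, at 133, 108 and 193 in S1, at 120.5, 102 and 167 in S2, and at 81.7, 45.7 and 25.6 in S3. Its levels in the first 4 populations overlapped, and the 3 S3 libraries lay below all of them. Stat5b fell by 1.44 ± 0.41 on the log2 scale in S3 against S0-Low (adjusted p = 0.0143). Without the libraries numbered 3 the log2 fold change was -0.94 ± 0.31 (adjusted p = 0.0397). Leaving out S3 replicate 3 alone gave -1.12 and ended the call (adjusted p = 0.0533). Relative to the median of all genes the log2 change was -0.90 for Stat5b and -6.93 for Stat5a.

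Measured within each library, the share of Stat5b in the sum of Stat5a and Stat5b counts does not depend on scaling. It was 55.1, 51.3 and 61.2% in S0-Low (mean 55.9% ± 5.0, SD, n = 3), 58.8% ± 4.7 for S0-Medium, 65.3% ± 7.0 for S1 and 75.9% ± 10.4 for S2. The S3 libraries had shares of 100% (1079 of 1079 counts, 95% exact interval 99.7 to 100), 97.7% (1015 of 1039 counts, 96.6 to 98.5) and 97.6% (446 of 457 counts, 95.7 to 98.8). The lowest S3 library lay above the highest library of every other population. The difference between S3 and S0-Low was 42.6 percentage points (exact permutation test, two-sided, p = 0.1, which is the lowest value possible with 3 against 3 libraries), and it was positive in all 3 same-numbered pairs. In Lin+ the share was 66.4, 67.7 and 70.5%. Both genes share sequence: 20.2% of the 31-base stretches in the Stat5a transcripts also occur in Stat5b, and 15.2% of those in Stat5b occur in Stat5a, so that the counts of each depend in part on how the quantification divided shared reads.

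**Figure D3:**
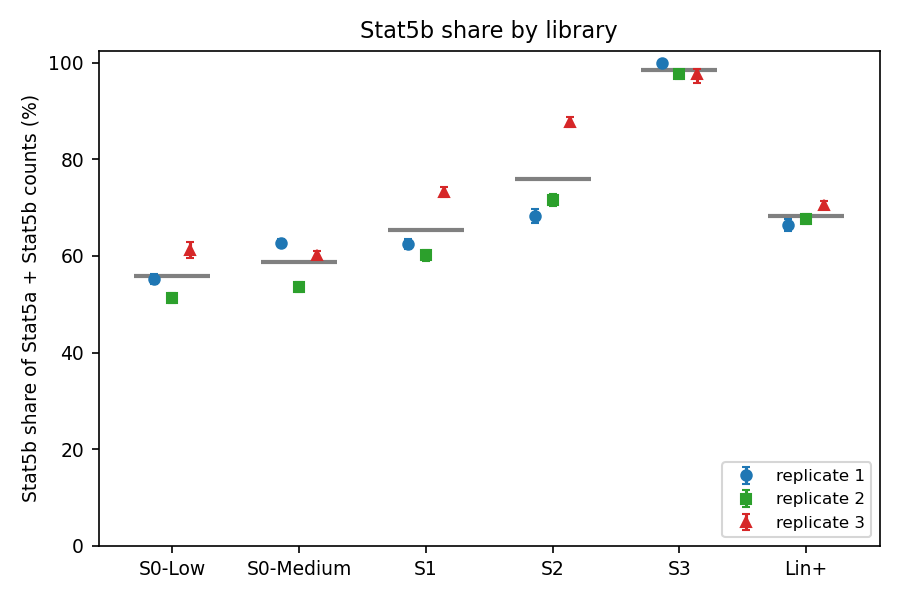
The vertical axis gives Stat5b counts as a percentage of Stat5a plus Stat5b counts in each library, the horizontal axis the population. Symbols are libraries by replicate number with exact 95% binomial intervals, which cover counting error only, and grey bars are means. The means go from 55.9% in S0-Low through 75.9% in S2 to 98.4% in S3, with Lin+ at 68.2%.

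Cish, the feedback inhibitor that binds the activated receptor (chr9:107296659-107302784), rose with maturation in each replicate series but from very different levels. It stood at 47.7, 77.5 and 12.8 CPM in S0-Low, at 97.0, 117 and 3.93 in S0-Medium, at 123, 167 and 4.98 in S1, at 268, 329 and 16.2 in S2, and at 755, 917 and 164 in S3. In replicates 1 and 2 each population was above the one before it, while replicate 3 was lower in S0-Medium and S1 than in S0-Low. The ratio of S3 to S0-Low was nevertheless alike in libraries of the same number, at 15.8, 11.8 and 12.8. The log2 fold change was 3.73 ± 1.31 (adjusted p = 0.0369), and 3.74 ± 0.31 without the libraries numbered 3 (adjusted p = 2.83e-05). The call was lost with library totals (2.98, adjusted p = 0.0679), with a minimum of 10 counts in every library compared (3.46, adjusted p = 0.0508) and when any of 5 single libraries was left out: S0-Low replicate 1 (3.69), 2 (4.26) or 3 (3.22), or S3 replicate 1 (3.54) or 2 (3.32). With the replicate number as a block in the fit, Cish rose by 3.76 ± 0.54 (adjusted p = 9.29e-05), though pairing by number was not assumed for this comparison. In Lin+ Cish stood at 29.1, 38.6 and 11.3 CPM.

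The 3 SOCS genes took different courses. Socs3 (chr11:117966079-117970336), whose protein blocks JAK kinases from within the receptor complex, stood at 2.02, 3.62 and 0 CPM in S0-Low, at 4.26, 5.16 and 0 in S0-Medium, at 8.39, 11.8 and 0.801 in S1, at 18.1, 35.0 and 4.82 in S2, and at 188, 293 and 60.8 in S3. Every S3 library lay above every library of the other erythroid populations. In S3 against S0-Low the ratio was 93.4 and 81.0 among libraries numbered 1 and 2, and the log2 fold change was 6.54 ± 1.61 (adjusted p = 0.00600). It was 6.41 ± 0.53 without the libraries numbered 3.

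Socs1 (chr16:10783808-10785536), which encodes another direct inhibitor of JAK kinases, went down to the counting floor. It stood at 14.5, 21.8 and 0 CPM in S0-Low, at 15.96, 28.5 and 0 in S0-Medium, at 13.1, 17.7 and 0.234 in S1, at 7.11, 8.82 and 0.0459 in S2, and at 0, 0.0901 and 0 in S3. Within each population outside S3, replicates 1 and 2 were above replicate 3, and the libraries numbered 3 were near 0 in all erythroid populations and at 9.97 CPM in Lin+. The S0-Low libraries held 1436 counts in all and those of S3 held 2, a ratio of 417 after scaling with a 95% exact interval of 115 to 3449. The fall passed the test (adjusted p = 0.0309, and 0.000163 without the libraries numbered 3). Its call was lost when S0-Low replicate 2 or S3 replicate 1, 2 or 3 was left out, with fitted log2 values between -11.55 and -7.60. In Lin+ Socs1 stood at 16.7, 17.9 and 9.97 CPM.

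Socs2 (chr10:95383903-95417321), which encodes an inhibitor best known from growth hormone signalling, stood at 7.18, 7.88 and 0 CPM in S0-Low, at 9.52, 12.8 and 0.910 in S0-Medium, at 11.5, 19.6 and 1.60 in S1, at 16.8, 26.4 and 0 in S2, and at 10.5, 28.5 and 0 in S3. Ranges of all populations overlapped. The log2 fold change of S3 against S0-Low was 1.36 ± 1.88 (adjusted p = 0.590), and 1.37 ± 0.61 without the libraries numbered 3 (adjusted p = 0.102). Osm (chr11:4236785-4241026) was low everywhere, between 0 and 6.61 CPM. It held 97 counts in S0-Low and 177 in S3, and the change did not pass the test (log2 fold change 1.99 ± 1.83, adjusted p = 0.409). Without the libraries numbered 3 its log2 fold change was 0.44 ± 1.55.

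The survival genes Pim1 and Bcl2l1 rose late. Pim1 (chr17:29490785-29496111) stood at 176, 298 and 131 CPM in S0-Low, at 251, 393 and 82.1 in S0-Medium, at 307, 484 and 140.5 in S1, at 566, 935 and 480.5 in S2, and at 3176, 4573 and 2659.7 in S3. The lowest S3 library was above the highest of S2. The ratio of S3 to S0-Low was 18.03, 15.3 and 20.3 among libraries of the same number, and the log2 fold change was 4.10 ± 0.60 (adjusted p = 0.000132; without the libraries numbered 3, 4.03 ± 0.43). In Lin+ Pim1 stood at 130.2, 287 and 229 CPM.

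Bcl2l1 (chr2:152758732-152833803) did not follow a steady course. It stood at 113, 77.5 and 56.7 CPM in S0-Low, at 105, 48.9 and 53.6 in S0-Medium, at 62.9, 49.0 and 63.8 in S1, at 104, 85.5 and 171 in S2, and at 1214, 1940.5 and 2296 in S3. The first 3 populations overlapped, every S2 library was above every S1 library, and S3 was far above all. Libraries of the same number gave S3 to S0-Low ratios of 10.8, 25.0 and 40.5, and the log2 fold change was 4.46 ± 0.44 (adjusted p = 6.41e-06; without the libraries numbered 3, 4.05 ± 0.43). In Lin+ it stood at 156, 108 and 106 CPM.

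**Figure D4:**
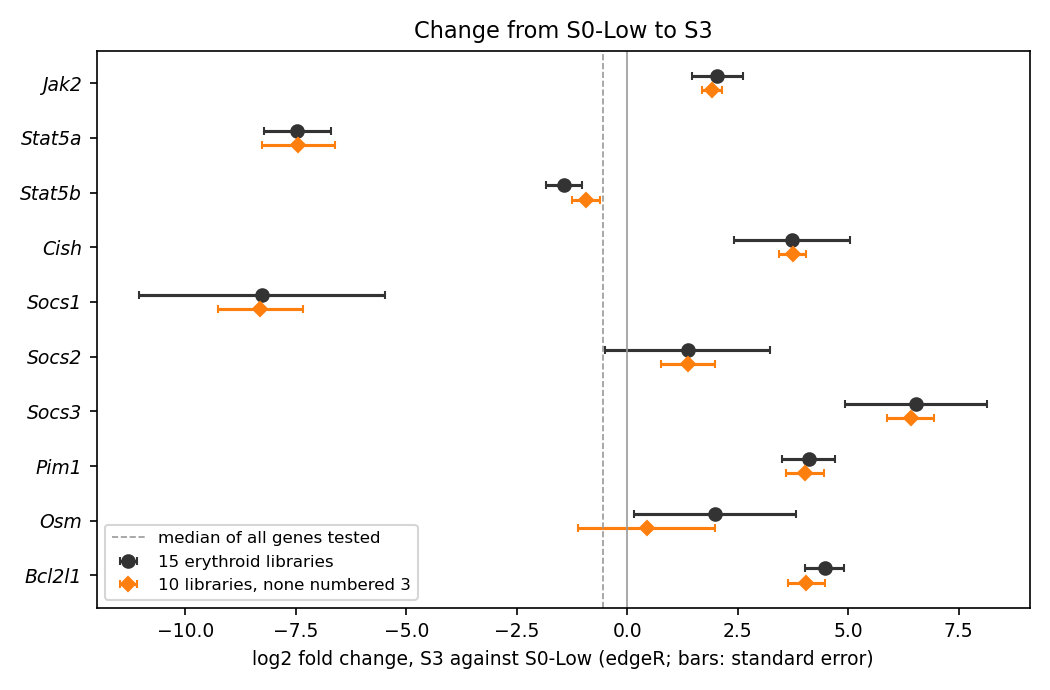
Log2 fold changes of S3 against S0-Low are plotted for the 10 members with their standard errors, from the fit of 15 erythroid libraries (circles) and from the 10 libraries not numbered 3 (diamonds). The dashed line is the median of all genes tested, -0.54. Jak2, Cish, Socs3, Pim1 and Bcl2l1 lie to the right of 0 and Stat5a, Stat5b and Socs1 to the left in both fits. The standard error of Cish is 1.31 with and 0.31 without the libraries numbered 3.

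Later comparisons asked at which step the members changed. None of the 10 members, and none of the 16555 genes (0%), passed edgeR's test between S0-Medium and S0-Low, between S1 and S0-Medium or between S2 and S1. At an unadjusted p under 0.05 there were 539, 1135 and 667 genes in these steps, of which 0, 0 and 1 were members, the last being Bcl2l1 in S2 against S1 (log2 fold change 1.03 ± 0.38, unadjusted p = 0.0163). DESeq2, the replicate block and the fit without the libraries numbered 3 also called 0 members in each of these steps. Over all genes DESeq2 called 47, 401 and 147, and the replicate block 23, 57 and 0. From S0-Low to S1, across both steps, 2.92% of genes and 0 members passed, none of them at an unadjusted p under 0.05 and none with DESeq2. Without the libraries numbered 3, Cish passed as higher in S1 (log2 fold change 1.21 ± 0.29, adjusted p = 0.04997), as did 3.6% of all genes in either direction. The libraries numbered 3 went the other way, with a ratio of S1 to S0-Low of 0.389. With the replicate block Cish did not pass (0.39 ± 0.50, adjusted p = 0.761), while 6.03% of all genes did. Stat5a lay lower in S1 than in S0-Low in all 3 replicates without overlap, by a log2 fold change of -0.54 ± 0.55 that did not pass the test.

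Between neighbouring populations, members passed the test in the step from S2 to S3. In S3 against S2, Pim1 (2.40 ± 0.55, adjusted p = 0.0142) and Bcl2l1 (3.93 ± 0.43, adjusted p = 0.000175) rose and Stat5a fell (-6.04 ± 0.71, adjusted p = 0.000217), which is 2 members higher and 1 lower against 3.26% and 6.09% of all genes. Libraries with the same number deviated together in this comparison, and with the replicate number as a block 8 members passed, against 18.6% of all genes in that fit, namely Jak2 (1.25 ± 0.20), Cish (2.19 ± 0.51), Socs3 (3.46 ± 0.78), Pim1 and Bcl2l1 as higher and Stat5a, Stat5b (-1.30 ± 0.35) and Socs1 as lower. Without the libraries numbered 3, 7 members passed, against 18.9% of all genes, those 8 less Stat5b (-0.80 ± 0.31, adjusted p = 0.107). With only the 6 libraries of S2 and S3 in the fit 1 member passed, Bcl2l1, and Stat5a (-6.16, adjusted p = 0.0692) and Pim1 (2.34) lost their calls. Without S2 replicate 1 Pim1 lost its call (2.29, adjusted p = 0.0673). In each same-numbered pair Jak2, Cish, Socs3, Pim1 and Bcl2l1 were higher in S3 than in S2.

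In S3 against S1, 5 members passed. Socs3 (4.69 ± 1.47, adjusted p = 0.0367), Pim1 (3.49 ± 0.58, adjusted p = 0.00100) and Bcl2l1 (4.96 ± 0.45, adjusted p = 1.92e-05) were higher, against 7.21% of all genes, and Stat5a (-6.92 ± 0.74) and Stat5b (-1.50 ± 0.41) lower, against 12.1%. With the replicate block 8 members passed, against 29.4% of all genes in that fit, with Jak2 (1.47 ± 0.20) and Cish (3.37 ± 0.54) also higher and Socs1 also lower. The call of Socs3 was lost when any of S1 replicates 1 (4.84), 2 (5.28) and 3 (4.15) or S3 replicates 1 (4.64) and 2 (4.15) was left out, and that of Stat5b without S1 replicate 3 (-1.24), S3 replicate 2 (-1.43) or S3 replicate 3 (-1.21). Socs3 also lost it with library totals (4.11, adjusted p = 0.0507), and Stat5b with only the 6 libraries compared (-1.59, adjusted p = 0.0606). Without S3 replicate 2, 3 members passed, and 4 passed with only those 6 libraries or with a minimum of 10 counts in each. Without any library numbered 3 there were 7, against 24.7% of all genes, and Stat5b was not among them (-0.92 ± 0.31, adjusted p = 0.0594). A single test of any difference among the 5 populations was passed by 24.6% of genes and by 6 members: Jak2, Stat5a, Stat5b, Socs3, Pim1 and Bcl2l1.

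Lin+ cells served as the non-erythroid population. Against S0-Low, 0 of the 10 members and 0.715% of the 17755 genes passed edgeR's test, with 0 members at an unadjusted p under 0.05 and 0 called by DESeq2. Socs3 was higher in Lin+ than in S0-Low without overlap, at 7.14, 13.3 and 10.0 CPM (log2 fold change 2.38 ± 1.27, adjusted p = 0.609), and Stat5a was lower without overlap (-0.72 ± 0.52, adjusted p = 0.819). Against S3, 8 members passed. Stat5a (6.74 ± 0.68), Stat5b (1.46 ± 0.39) and Socs1 were higher in Lin+, against 28.2% of all genes. Jak2 (-1.59 ± 0.53), Cish (-4.54 ± 1.31), Socs3 (-4.15 ± 1.36), Pim1 (-4.01 ± 0.58) and Bcl2l1 (-3.88 ± 0.41) were lower in Lin+, against 14.1%. Jak2 lost this call without S3 replicate 3 (-0.96), Lin+ replicate 1 (-1.48) or Lin+ replicate 2 (-1.51), with library totals (-0.72) and with a minimum of 10 counts in every library compared (-1.22, adjusted p = 0.0784). Socs3 lost it without S3 replicate 2 (-3.54) or Lin+ replicate 1 (-3.94), 2 (-4.38) or 3 (-4.13), and Socs1 without S3 replicate 1 (8.15) or 3 (8.04). Without the libraries numbered 3 the same 8 members passed in the same directions, against 39.9% of all genes in that fit, with Jak2 at -1.15 ± 0.23, Cish at -4.62 ± 0.35, Socs3 at -4.55 ± 0.53 and Stat5b at 0.98 ± 0.30. Both comparisons with S3 share the S3 libraries and are not independent of each other.

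Stem, progenitor and neutrophil markers fell along the series and were low by S1. Stat5a, Stat5b and Socs1, genes that are also used by stem cells and white blood cells, had their lowest means in S3. In S3 against S0-Low 3 of the 5 macrophage and monocyte markers tested were called lower, and 0 of the 4 megakaryocyte markers (80.6 to 163 CPM in sum in S0-Low, 55.5 to 115 in S3) and 0 of 1 lymphoid marker. Both mast cell and basophil markers tested were called lower (21.5 to 32.4 CPM in sum over the list in S0-Low, 0 in S3), as were 2 of the 3 hepatocyte markers tested (5.79 to 9.05 CPM in S0-Low, 0 in S3). The 6 stem and progenitor markers, all called lower in S3 than in S0-Low, summed to 697 to 1098 CPM in S0-Low, 163 to 496 in S0-Medium, 13.6 to 27.2 in S1, 0.826 to 5.33 in S2 and 1.61 to 8.16 in S3, and to 822 to 1112 in Lin+. The 8 neutrophil markers, of which Mpo held most of the sum in S0-Low, went from 409 to 832 CPM in S0-Low to at most 1.63 in S1. Of these 8, S100a8 (155 to 248 CPM in Lin+) already had at most 3 counts in every S0-Low library, Itgam was at 0 in all 18 libraries including Lin+ and so carries no information here, and 4 of the 4 tested were called lower in S3. In S1 Stat5a stood at 70.8 to 79.6 CPM, Stat5b at 108 to 193 CPM and Socs1 at 13.1 and 17.7 CPM in replicates 1 and 2. The part of stem, progenitor and other blood cells in the falls of Stat5a, Stat5b and Socs1 to S3 was not tested.

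The other genes of the pathway, a list of 57, moved in both directions. Of the 54 tested in S3 against S0-Low, 11 were higher, 22 were lower and 21 did not pass, where 13.4% of all genes were higher and 22.4% lower, with a median log2 fold change of -1.24 against -0.54 for all genes. Among receptors and their chains, 1 of the 11 tested rose and 6 fell. The riser was Epor, the erythropoietin receptor, which stood at 31.1, 60.4 and 53.2 CPM in S0-Low and at 277, 537 and 720.0 in S3 (log2 fold change 3.41 ± 0.57, adjusted p = 0.000407), with the S3 libraries above all those of S0-Low. Among the fallers, Csf3r, the receptor for granulocyte colony-stimulating factor, went from 37.3 to 81.5 CPM to 0 to 0.0901. Kit, the stem cell factor receptor, stood at 411, 321 and 729 CPM in S0-Low and at 0, 2.61 and 0 in S3. Without the libraries numbered 3, Csf2rb2 also passed as higher (1.54 ± 0.45, adjusted p = 0.0233) and Csf2rb as lower (-1.89 ± 0.37, adjusted p = 0.00361).

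None of the other kinase and STAT genes passed the test as higher in S3. Jak3 and Tyk2 fell, and Jak1 had a log2 fold change of 0.81 ± 0.33 that did not pass (adjusted p = 0.0651). Without the libraries numbered 3 Jak1 passed as higher (0.81 ± 0.25, adjusted p = 0.0277), and Jak3 and Tyk2 kept their calls. Stat2 (-1.53 ± 0.56), Stat3 (-1.65 ± 0.49) and Stat4 fell, Stat4 from 6.41 to 61.2 CPM in S0-Low to 0 to 0.0757 in S3, while Stat6 (-1.32 ± 0.51) did not pass. The calls of Stat2 and Stat6 depended on the libraries numbered 3. In the fit without them Stat2 lost its call (-0.63 ± 0.46, adjusted p = 0.2997) and Stat6 passed as lower (-1.89 ± 0.63, adjusted p = 0.0402). Stat3 (-0.92 ± 0.31, adjusted p = 0.0409) and Stat4 kept their calls in that fit. Of the 17 SOCS proteins, phosphatases and other regulators, Pias4 rose and 7 fell: Ptprc, Socs5, Ptpn6, Sh2b2, Sh2b3, Socs6 and Cbl. Without the libraries numbered 3, Socs6 lost its call (-1.42 ± 0.64, adjusted p = 0.106) and Pias1 passed as higher (0.93 ± 0.27, adjusted p = 0.0238). Ptprc, which encodes the CD45 phosphatase of white blood cells, went from 91.0 to 169 CPM to 0 in all S3 libraries, and Socs5 from 31.9 to 48.3 CPM to 0 to 0.316. The list mixes inhibitors with genes such as Ptpn11 and Sh2b1 that also promote signalling, and neither of these passed with all erythroid libraries in the fit. When the libraries numbered 3 were left out, Ptpn11 passed as lower (-0.69 ± 0.23, adjusted p = 0.0397) and Sh2b1 did not pass (adjusted p = 0.179).

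Among 6 adaptors, Gab1, Irs2, Pik3r1 and Shc1 rose and Grb2 fell. Among 12 further target genes, Ccnd3, Mcl1, Erfe, Tfrc and Trib3 rose, and Ccnd2, Id1 and Myc fell. Erfe, which encodes the erythroid hormone erythroferrone, stood at 4.47, 7.26 and 0 CPM in S0-Low and at 208, 244 and 111 in S3 (5.55 ± 1.23, adjusted p = 0.00291). Its log2 fold change was 5.27 ± 0.39 without the libraries numbered 3, and that of Ccnd2 was -4.71 ± 1.66 with them and -4.53 ± 0.46 without. Podxl (-2.32 ± 0.40, adjusted p = 0.00161) and Pim3 (-1.86 ± 0.48, adjusted p = 0.0134) passed as lower only without those libraries. Irs2 kept its call, at 2.78 ± 0.67 with them and 1.29 ± 0.35 without. Ccnd2 and Podxl shared the pattern of Cish in the libraries numbered 3: the mean difference from replicates 1 and 2 was -3.65 and -3.69, ranks 6 and 5 from the lowest of 17755. For Erfe it was -2.15, rank 105. In all, 8 of the 55 pathway genes tested over 18 libraries were among the lowest 5% of genes by this measure, the other 5 being Csf2rb, Csf2rb2, Sh2b2, Gab2 and Il6st. Bcl6 (1.55) and Pias3 (1.36) were among the highest 5%. In Lin+ against S0-Low, 0 of 55 pathway genes passed edgeR's test, with 11 at an unadjusted p under 0.05 and 2 called by DESeq2. Of all 17755 genes 127 passed (0.715%), and 1748 had an unadjusted p under 0.05.

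**Figure D5:**
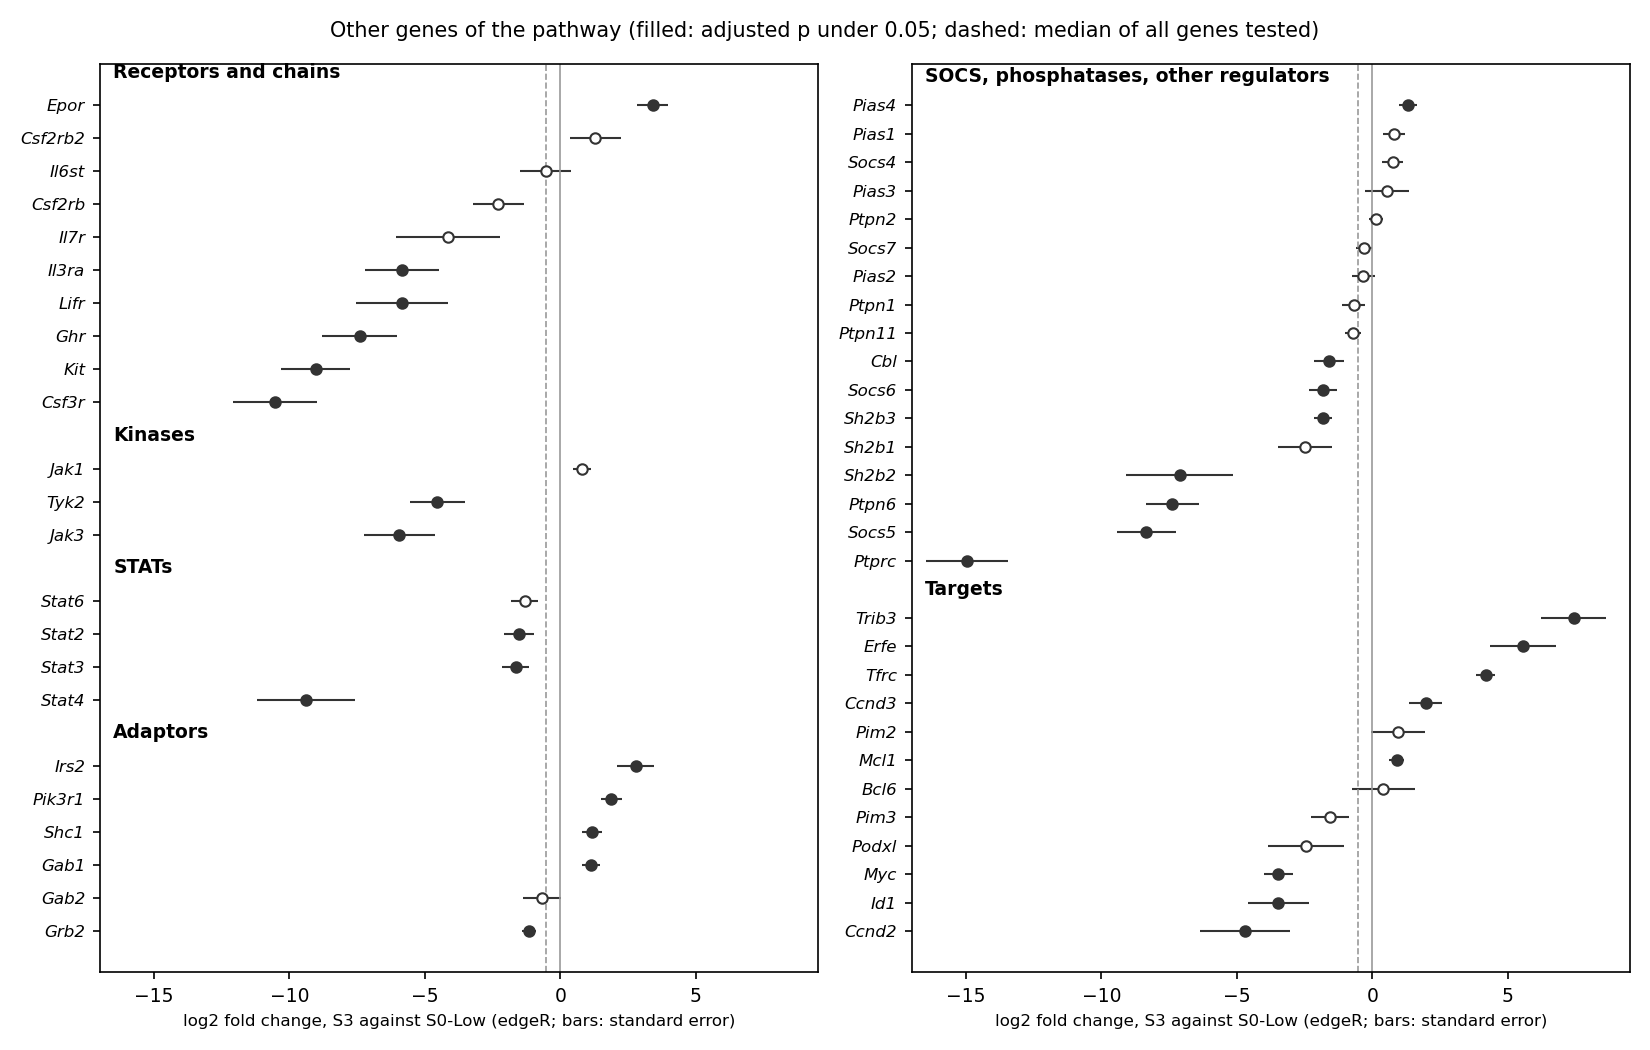
Log2 fold changes of S3 against S0-Low with standard errors are plotted for 52 of the 54 other pathway genes tested, in groups by role and in order of size. Filled symbols passed the test at an adjusted p under 0.05, and the dashed line is the median of all genes, -0.54. Among the receptors Epor lies alone among filled symbols on the right, and among the targets Trib3, Erfe, Tfrc, Ccnd3 and Mcl1 do. The value of Ptprc, at 0 in S3, depends on the fit and is not a bound.

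The genes most like each member were sought by the Pearson correlation of log2(CPM + 0.5) over the 18 libraries, among 12318 genes with a mean of at least 1 CPM, and are given as a description. The points share scaling, replicate number and the change with maturation. Jak2 was most like Mospd1 (r = 0.973) and Nbr1 (0.968), Stat5a most like Cnn3 (0.9897) and 9030624G23Rik (0.981), and Stat5b most like Atg4c (0.940) and Bid (0.936). For Bcl2l1 they were Xpo7 (0.971) and Pepd (0.966), and for Pim1 Pdcd10 (0.958) and Frmd4a (0.957). Cish was nearest to Tnfrsf13c (0.934) and Lrrc8b (0.932), Socs1 to Ada (0.960) and Hyou1 (0.959), and Socs2 to Klhdc4 (0.929) and Bag3 (0.911). The second nearest gene to Socs3, after Tnfrsf21 (0.944), was Pim1 (0.921), the one case of a member among another's nearest 2. Osm, with few counts, was nearest to Alg12 (0.875) and Gm15559 (0.845).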

How the data were processed

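4sU-labelled RNA was sequenced by the authors in 18 libraries, grouped and numbered from the labels. The deposited values are expected counts per gene, which the authors estimated with Kallisto 0.43.0 (GRCm38, per the submitters' processing notes) from paired-end reads of a stranded kit with PCR and no molecular identifiers. They are whole numbers, neither normalized nor pooled. The transcript set and the treatment of introns are not given in the sources used here. Symbols came from a gene name table, which matched 32651 of 54232 identifiers, and positions from RefSeq.

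Counts were analysed with edgeR 4.0.16 in R 4.3.3: TMM scaling, filterByExpr, and the quasi-likelihood test, two-sided, at a Benjamini-Hochberg adjusted p of 0.05 over all genes in the fit. The 15 erythroid libraries shared 1 fit, and all 18 entered comparisons with Lin+. The standard error is the log2 fold change over the square root of F. CPM use TMM scaling over 18 libraries. Alternatives were DESeq2 1.42.0, other scalings and filters, the replicate block, the 6 libraries compared alone, all 18 libraries, and each library left out. Scripts were tested on simulated data. Python 3.11.15 and matplotlib 3.10.9 were also used.

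The members, lists and tests were chosen with earlier results of these data known. Named genes were the 10 members, the other pathway genes that passed in S3 against S0-Low (values for the 6 largest changes and for Epor, except that results of 2 listed genes are not reported here), and the 2 genes most like each member. Genes outside this rule, such as Erfe with its values and Podxl, were chosen after their values were seen. So were those named for their replicate 3 difference or for a change without the libraries numbered 3. Replicate numbers were taken to pair libraries where the correlation of their deviations from group means exceeded 0.1 in every pair. This held in 7 of 9 comparisons (0.17, 0.256 and 0.313 in S3 against S2, and 0.237, 0.205 and 0.302 in S3 against S1), and not in S3 against S0-Low (0.0806, 0.131 and 0.105) or Lin+ against S3 (0.0905, 0.121 and 0.16).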

Additional observations from a re-analysis of the deposited data

How the results depend on the processing

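The 26 member fold changes refitted under the alternatives were the 10 of S3 against S0-Low and those called in other comparisons. Refits in which the gene was not tested are not counted. Of the 372 refits counted, 331 kept their side of the threshold, 41 did not and 0 reversed. Of the other 64 member fold changes, none of them called, 14 changed sign under the replicate block or without the libraries numbered 3. Requiring 10 counts in every compared library, which removes genes with fewer in any 1 of them and also ended calls of genes it kept (Cish in S3 against S0-Low, Jak2 in Lin+ against S3), left 4 members called in S3 against S0-Low, 5 in Lin+ against S3, 3 for any difference and 18 other pathway genes in S3 against S0-Low. With no filter 8 members were called in S3 against S1 and 8 in S3 against S2, as with the replicate block. DESeq2 called 5 in S3 against S2, the 6 libraries alone 1 (98 genes in all), and the fit without libraries numbered 3 called 7. That fit called 1 member, Cish, in S1 against S0-Low. For other pathway genes in Lin+ against S0-Low, DESeq2 called 2, no filter 4, the replicate block 3, the 6 libraries alone 6 and the fit without libraries numbered 3 called 3, against 0. The cause of these differences was not tested.

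Leaving out single libraries gave 5 to 7 members in S3 against S0-Low (5 without S0-Low replicate 2 or S3 replicate 3), 3 to 5 in S3 against S1, 2 to 4 in S3 against S2, 6 to 7 in Lin+ against S3 and 4 to 6 for any difference. The shares of all genes called in those fits are not given here, so these counts cannot be read against them. The Stat5b share difference stayed at 40.3 to 45.2 percentage points, and the sign-flip test within same-numbered pairs gave an exact p of 0.25, the smallest for 3 pairs. In S3 against S0-Low, whose numbers did not pass the pairing check, the replicate block called 8 members, against 42.4% of all genes, and every library correlated best with its own number (3 of 3). The depth of S0-Low replicate 3 limits low genes: its 0 counts of Socs1, Socs2, Socs3 and Osm allow up to 0.317 CPM before scaling.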
